A study of Mus musculus with 6 samples.

Results

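The 43 genes described here encode proteins that find, protect and mend broken DNA in the mouse: 18 of homologous recombination, 11 of the Fanconi anaemia pathway, 8 that sense breaks, trim their ends or signal to the cell cycle, and 6 of end joining. They were taken by gene symbol from the deposited mRNA table, and each is represented by its annotated transcript with the highest mean over the 6 libraries. All 43 were found among the 21774 genes of the table, and all 43 were among the 15759 genes that passed the filter of a mean value of at least 1. The RNA came from wild-type mouse lung cells selected with B220 microbeads (B220 is the form of CD45 carried by most B cells) in 3 control and 3 severe asthma libraries. The severe asthma group was sensitized through the trachea with bacterial lipopolysaccharide (LPS, 10 μg a dose) together with an extract of house dust mite (HDM, 25 μg a dose) on each of days 0 to 2. It then received 25 μg of HDM alone on each of days 7 to 14. The control group received buffer on the same route, although its treatment label reads none; the age, sex and strain of the mice are not given in the sources used here. The study asked how lung B cells take part in building lymphoid tissue around the inflamed airway.

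A double-strand break is mended along 2 main routes. In end joining the Ku proteins hold the broken ends and a ligase seals them, in any phase of the cell cycle. In homologous recombination the ends are trimmed to single strands, those strands are coated with repair proteins, and the sister copy of the DNA serves as the template, which ties this route to the phases in which such a copy exists. The Fanconi anaemia proteins unhook crosslinks between the strands and protect stalled replication forks, and several of them are also partners of the BRCA proteins. B cells make breaks of their own in the immunoglobulin genes, and end joining seals most of those made for V(D)J recombination and for class switching.

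Values are the deposited adjusted reads per transcript, which the authors had brought to 1 common library size. They are not divided by transcript length, so a value is compared between libraries and not between genes. The libraries held 16498219 to 18054903 reads over the mRNA genes. Whether each library is a different mouse is not stated in the labels, so the p-values hold for the spread among these 6 samples, and that spread may be technical. Where 3 values are given for a group they are those of its libraries 1, 2 and 3 in that order. Fold changes are severe asthma over control on the log2(value + 1) scale, with the limma p-value adjusted over all 15759 genes, and a gene is said to have risen or fallen where that adjusted p was under 0.05. The B cell markers summed to 149789 to 210929 in the control and 207033 to 226069 in the severe asthma libraries, over the 10 of 12 listed markers that were matched. Markers of other cells were also present: 9 of 12 monocyte and macrophage markers rose, with sums of 11671 to 25800 against 92201 to 144940, and all 8 endothelial markers fell, with sums of 15874 to 43743 against 5297 to 8255. The part of these cells in the results below was not tested. In bulk RNA a larger share of cells of one type and more RNA per cell cannot be told apart.

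Of the 43 repair genes 19 rose and 0 fell in severe asthma. Across all genes tested 20.7% rose and 14.4% fell by the same rule, 35.1% in either direction. No repair gene was lower at an unadjusted p under 0.05 either, and edgeR, DESeq2 and limma-voom called 0 lower. The median log2 fold change was 0.36 over the 43 genes and 0.06 over all genes. The values of the groups did not overlap for 30 repair genes, of which 29 were higher in severe asthma, where 31.6% of all genes were, and 1 was lower, where 21.6% of all genes were. A rise of at least 2-fold was found for 7 genes, Rmi2, Rad51ap1, Brip1, Rad54b, Chek1, Fancd2 and Brca1, and 5.03% of all genes rose that much. These 7 belong to 3 of the role groups: 5 act in homologous recombination, Fancd2 is a Fanconi protein and Chek1 a checkpoint kinase.

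**Figure D1:**
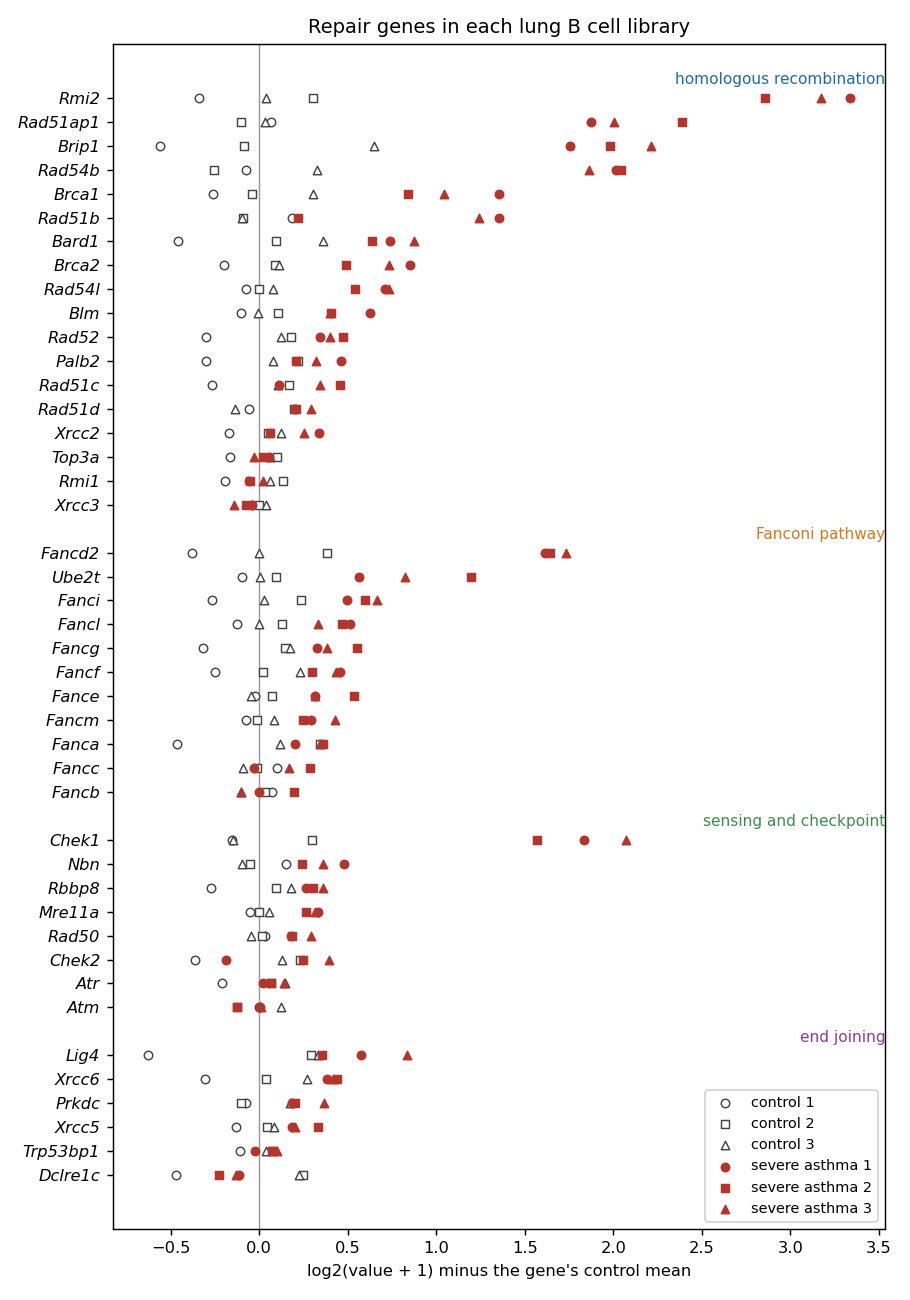
Each row is a repair gene and each symbol a library, placed at its log2(value + 1) minus the mean of the 3 control libraries of that gene. The red severe asthma symbols stand apart from the open control symbols for 29 genes on the higher side, most widely for Rmi2, while control library 1 (open circle) is the lowest control for 32 of the 43 genes.

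Within homologous recombination the largest rise was in a subunit of the complex that dissolves joined DNA molecules. This complex holds the helicase Blm, the topoisomerase Top3a and the scaffold proteins Rmi1 and Rmi2. Rmi2 (chr16:10835059-10843235, GRCm38) had values of 11.8, 19 and 15.6 in the controls and 163, 116 and 145 in severe asthma. All severe asthma values lay far above all control values, and the log2 fold change was 3.12 ± 0.29 (SE, n = 3 per group, adjusted p = 0.000614). Blm, with 189, 218 and 202 in the controls and 312, 269 and 267 in severe asthma, rose by a log2 fold change of 0.48 (adjusted p = 0.0221). Its partners did not pass: Top3a had 646, 776 and 755 in the controls and 753, 734 and 708 in severe asthma, and the groups overlapped, with a log2 fold change of 0.02 ± 0.09 (SE, n = 3 per group, adjusted p = 0.909). Rmi1 had a log2 fold change of -0.03 (95% interval -0.27 to 0.21). The 4 genes of 1 complex thus had log2 fold changes from -0.03 to 3.12.

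Next to it stood genes whose products act in strand pairing and exchange. Rad51ap1 (chr6:126923415-126939621), which helps to pair strands, had 22.6, 20 and 22.1 in the controls and 81.5, 117 and 89.3 in severe asthma. The groups were widely separated, with a log2 fold change of 2.09 ± 0.27 (SE, n = 3 per group, adjusted p = 0.00189). Rad54b (chr4:11558920-11615808), a DNA translocase that aids strand exchange, had 13.8, 12 and 18.5 in the controls and 61.6, 62.9 and 55.6 in severe asthma, again with no overlap, and a log2 fold change of 1.97 ± 0.30 (SE, n = 3 per group, adjusted p = 0.00369). Its relative Rad54l had 217, 229 and 242 in the controls and 375, 334 and 382 in severe asthma. Its rise was smaller, with a log2 fold change of 0.66 ± 0.11 (SE, n = 3 per group, adjusted p = 0.00487). Rad52, which anneals single strands, was higher in all 3 severe asthma libraries than in all controls but had an adjusted p of 0.0669 (log2 fold change 0.40). With the replicate number as a block the adjusted p of Rad52 was 0.0435. No label pairs the libraries. This block, here and below, took the replicate numbers as pairs, which these data do not favour for libraries 2 and 3.

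Rad51b, Rad51c, Rad51d, Xrcc2 and Xrcc3, related proteins that work together in complexes on single-stranded DNA, did not pass the test. Rad51b had 14.8, 12 and 11.9 in the controls and 34.4, 15.1 and 31.8 in severe asthma, so that severe asthma library 2 lay close to the controls and the other severe asthma libraries well above them. Its log2 fold change was 0.94 with a wide 95% interval of -0.01 to 1.89. The values of Rad51d did not overlap between the groups (log2 fold change 0.24, adjusted p = 0.1099), and without control library 2 the adjusted p was 0.0289. The intervals of Rad51c (-0.18 to 0.79) and Xrcc2 (-0.20 to 0.63) reached on both sides of 0. Xrcc3 was the single repair gene with all severe asthma values below all control values, if barely. It had 166.14, 171 and 176 in the controls and 166.10, 162 and 155 in severe asthma, so the libraries numbered 1 were nearly equal. Its log2 fold change of -0.09 had an adjusted p of 0.642.

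Both BRCA genes rose, and so did Bard1 and Brip1, while Palb2 did not pass. Brca1 (chr11:101488761-101551955), which promotes end trimming, had 125, 146 and 185 in the controls and 385, 269.9 and 311 in severe asthma, a log2 fold change of 1.08 (adjusted p = 0.006298). Bard1, which pairs with Brca1 to form a ubiquitin ligase, had a log2 fold change of 0.75 (adjusted p = 0.0467). Brca2, which acts on the trimmed single strands, rose from 194 ± 22.8 to 315 ± 39.5 (mean ± SD, n = 3), by 0.69 on the log2 scale (adjusted p = 0.0111). The helicase gene Brip1 (chr11:86058136-86201215), also counted among the Fanconi genes as FANCJ, had 20.6, 29.01 and 49.03 in the controls and 107, 125 and 147 in severe asthma, and the lowest severe asthma value was above the highest control value; the log2 fold change was 1.98 (adjusted p = 0.00555). Palb2, the bridge between Brca1 and Brca2, had overlapping groups and a log2 fold change of 0.33 (95% interval -0.12 to 0.78).

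In all, 9 of the 18 homologous recombination genes rose, where 20.7% of all genes did, and the median over the 18 was 0.57. Leaving out 1 library at a time kept the calls of Rmi2, Rad51ap1, Rad54b, Brip1, Brca1 and Rad54l. Brca2 lost its call without severe asthma library 3 (adjusted p = 0.0553). Bard1 lost it without any 1 library other than control 3 (adjusted p from 0.0503 to 0.157), and Blm without control 3 or any 1 of the severe asthma libraries (0.0611 to 0.0845).

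**Figure D2:**
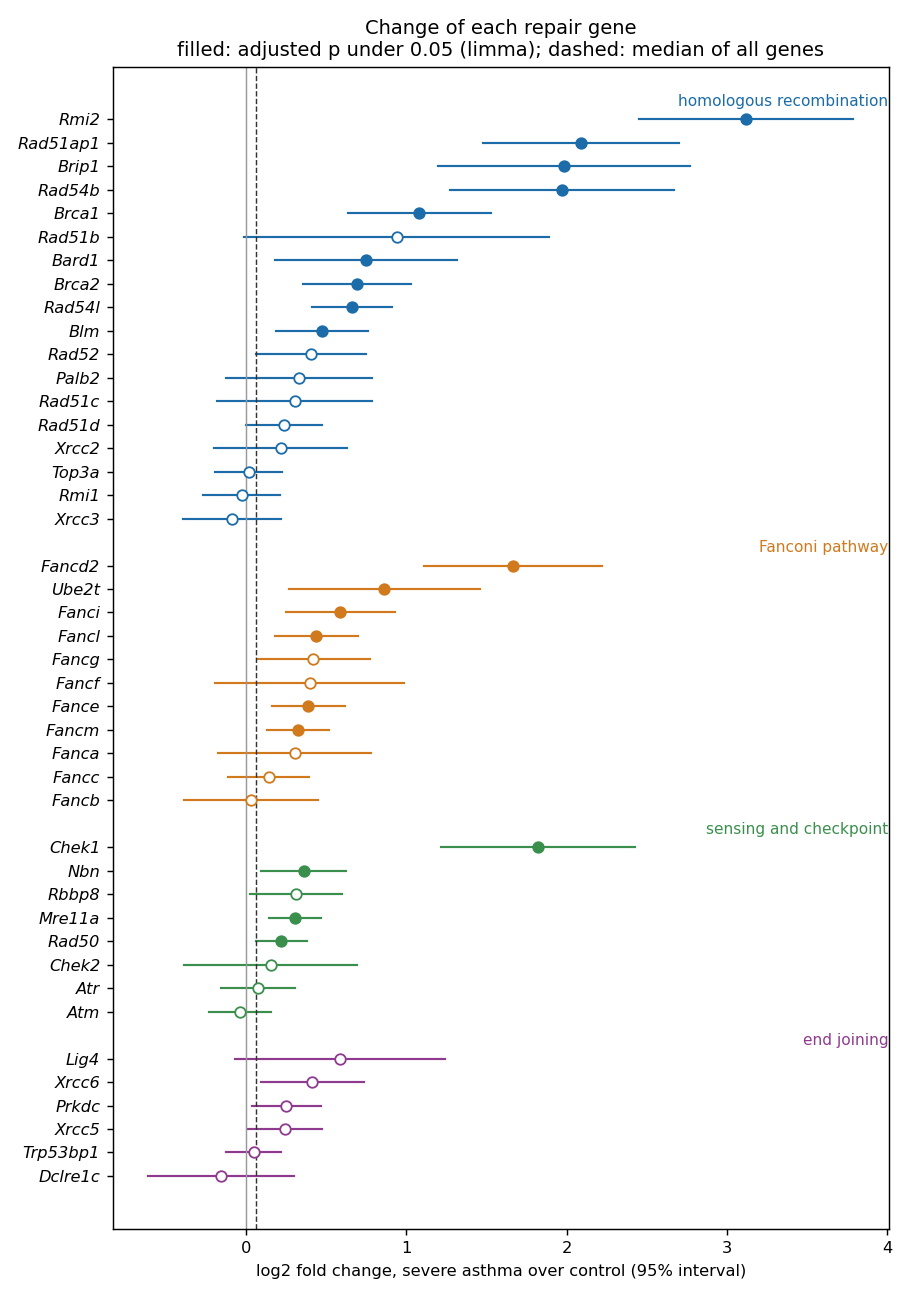
Each point is the log2 fold change of a repair gene, severe asthma over control, with its 95% interval from limma, grouped by role; filled points have an adjusted p under 0.05 and the dashed line is the median of all genes, 0.06. Filled points are found in 3 role groups, and the 6 end joining genes, all open, run from -0.16 to 0.59.

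Of the 11 Fanconi genes 6 rose, where 20.7% of all genes did, and the median over the 11 was 0.40 on the log2 scale. The pathway turns on the pair Fancd2 and Fanci, which clamps onto DNA once ubiquitin has been added to it. Fancd2 (chr6:113531640-113597020) had 37.3, 64.01 and 48.7 in the controls and 152, 155 and 165 in severe asthma, with no overlap and a log2 fold change of 1.66 ± 0.24 (SE, n = 3 per group, adjusted p = 0.00294). Fanci, with 182, 258 and 223 in the controls and 309, 332 and 347 in severe asthma, rose less, by a log2 fold change of 0.59 ± 0.15 (SE, n = 3 per group, adjusted p = 0.0192). The enzymes that attach the ubiquitin rose as well: Ube2t, the conjugating enzyme, went from 42.2 ± 2.85 to 78.7 ± 17.8 (mean ± SD, n = 3), by 0.86 on the log2 scale (adjusted p = 0.0347), and Fancl, the ligase, had a log2 fold change of 0.44 ± 0.11 (SE, n = 3 per group, adjusted p = 0.02104). The core complex that holds Fancl moved less evenly. Fance had 363, 388 and 357 in the controls and 459.7, 535 and 459 in severe asthma and a log2 fold change of 0.39 ± 0.10 (SE, n = 3 per group, adjusted p = 0.02004). Fancm, the translocase that brings the core complex to DNA, had a log2 fold change of 0.32 (adjusted p = 0.0221). Fancg (log2 fold change 0.42, adjusted p = 0.06604) and Fancf (0.40, 0.258) had no overlap between the groups and did not pass; with the replicate number as a block Fancg had an adjusted p of 0.0323. Fanca had 819.9, 1434 and 1228 in the controls and 1303, 1452 and 1433 in severe asthma, with control library 1 far below the other controls. Its log2 fold change was 0.30 (95% interval -0.18 to 0.78). Fancb had the largest adjusted p of the Fanconi genes, 0.911, with a log2 fold change of 0.03 (95% interval -0.38 to 0.45). Of the 6 calls, that of Fancd2 held with each library left out. Fanci lost its call without severe asthma library 2 or 3 (adjusted p 0.0762 and 0.0820), and Fance, Fancl, Fancm and Ube2t each lost theirs without severe asthma library 2 (0.0815, 0.0830, 0.0548 and 0.134) or 3 (0.0587, 0.0546, 0.0960 and 0.106). Some were also lost without control 2 (Ube2t), control 3 (Fance, Fancl and Ube2t) or severe asthma 1 (Fancl and Fancm), with adjusted p-values from 0.0506 to 0.0794.

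Among the 8 genes that sense breaks and signal from them, 4 rose, where 20.7% of all genes did. The median log2 fold change of the 8 was 0.26. The 3 genes of the complex that first binds a broken end were slightly higher and passed with limma. Rad50 and Nbn did not pass with edgeR and TMM factors (adjusted p 0.114 and 0.107), DESeq2 (0.282 and 0.203) or limma-voom (0.119 and 0.0914). Mre11a did not pass with DESeq2 (0.0572). Mre11a, its nuclease, had 671, 694 and 723 in the controls and 878, 836 and 867 in severe asthma, with no overlap and a log2 fold change of 0.30 ± 0.07 (SE, n = 3 per group, adjusted p = 0.0152). Rad50, which tethers the ends, had 1059.8, 1045 and 1000.2 in the controls and 1170.1, 1178 and 1270.0 in severe asthma, a rise of 1.16-fold (log2 fold change 0.22 ± 0.07 (SE, n = 3 per group, adjusted p = 0.0405)), and an adjusted p of 0.0553 with the replicate number as a block. Nbn, which brings the kinase Atm to the complex, had 331, 288 and 279 in the controls and 417, 353 and 383 in severe asthma and a log2 fold change of 0.36 ± 0.11 (SE, n = 3 per group, adjusted p = 0.0421). Rbbp8 encodes CtIP, the starter of end trimming; its log2 fold change was 0.31 with an adjusted p of 0.0857, or 0.0468 with the block.

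The damage kinases separated into 1 that rose and 3 that did not pass. Chek1 (chr9:36708482-36726658), the effector kinase that holds the cell cycle when replication stalls, had 27.5, 38.01 and 27.5 in the controls and 112, 92.9 and 132 in severe asthma. Every severe asthma value was more than 2 times every control value, and the log2 fold change was 1.82 ± 0.26 (SE, n = 3 per group, adjusted p = 0.00287). Atr, the kinase that acts upstream of Chek1, had 987, 1194 and 1261 in the controls and 1158, 1194 and 1255 in severe asthma, with overlapping groups and a log2 fold change of 0.07 (95% interval -0.16 to 0.31). Atm, the kinase that answers to double-strand breaks, had 2193, 2010.4 and 2392 in the controls and 2196, 2009 and 2205 in severe asthma and a log2 fold change of -0.04 ± 0.08 (SE, n = 3 per group, adjusted p = 0.749). Chek2, the effector of Atm, had a log2 fold change of 0.15 (95% interval -0.39 to 0.69). The call of Chek1 held with each library left out. Mre11a lost its call without severe asthma library 1 or 3 (adjusted p 0.0504 and 0.0670), and Rad50 and Nbn lost theirs without any 1 library other than control 1 (0.0647 to 0.155 and 0.0731 to 0.140).

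Of the 6 end joining genes 0 passed the limma test in either direction, and edgeR, DESeq2 and limma-voom called 0 as well. Of all genes 20.7% rose and 35.1% were called in either direction. With as few as 6 genes a count of 0 is hard to tell from those shares, and this was not tested. At an unadjusted p under 0.05 in limma 3 were higher. The values of 4 did not overlap between the groups, each higher in severe asthma, where 31.6% of all genes were. Xrcc6 encodes the smaller Ku protein, Ku70, and had 418, 530.1 and 623 in the controls and 675, 702 and 689.6 in severe asthma. This gave a log2 fold change of 0.41 ± 0.14 (SE, n = 3 per group, adjusted p = 0.0507), just above the threshold of 0.05. The adjusted p was 0.0235 with the replicate number as a block, 0.0457 without control library 1 and 0.0245 without control library 3. It was 0.0375 by the second transcript of Xrcc6 and 0.0420 by the median over transcripts. Of the 6 transcripts of Xrcc6, 5 rose with p-values adjusted over all transcripts, so its call depended on the transcript chosen. Xrcc5, which encodes the partner Ku80, had 339, 383 and 393 in the controls and 422, 468 and 427 in severe asthma and a log2 fold change of 0.24 ± 0.10 (SE, n = 3 per group, adjusted p = 0.0955). Prkdc, the catalytic subunit of the DNA-dependent protein kinase that Ku recruits, had 1299, 1273 and 1539.5 in the controls and 1555, 1573 and 1757 in severe asthma, no overlap, and a log2 fold change of 0.25 ± 0.09 (SE, n = 3 per group, adjusted p = 0.0713); its adjusted p was 0.0233 with the block and 0.0360 without control library 3. Lig4, the ligase that seals the ends, had 149, 284 and 292 in the controls and 345, 297 and 414 in severe asthma. Control library 1 was the low value, and the log2 fold change was 0.59 ± 0.28 (SE, n = 3 per group, adjusted p = 0.1401).

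The remaining end joining genes lay close to 0 or below it. Trp53bp1 encodes 53BP1, which shields ends from trimming and is needed for class switching, and had 1757, 1986 and 1939.7 in the controls and 1859, 1987 and 2026 in severe asthma; the log2 fold change was 0.05 ± 0.07 (SE, n = 3 per group, adjusted p = 0.648). Dclre1c encodes Artemis, the nuclease that opens DNA hairpins in V(D)J recombination, and had 571, 941 and 926 in the controls and 733, 677 and 724 in severe asthma. Control library 1 lay below all severe asthma libraries and the other controls above them, and the log2 fold change was -0.16 ± 0.19 (SE, n = 3 per group, adjusted p = 0.562). Without control library 1 Dclre1c had a log2 fold change of -0.39 and was called lower (adjusted p = 0.00357).

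Set side by side, 9 of 18 homologous recombination genes and 0 of 6 end joining genes rose, where 20.7% of all genes did. The medians were 0.57 and 0.25, against 0.06 over all genes. In the lists of other genes given below, 16 of 31 of homologous recombination and 7 of 20 of end joining and end protection rose. The medians of those lists were 0.44 and 0.36, closer to each other than those of the 18 and 6 genes. The mean log2 value of the homologous recombination genes minus that of the end joining genes was -2.58, -2.72 and -2.74 in the controls and -1.99, -2.11 and -2.10 in severe asthma. The difference between these routes was thus smaller in each severe asthma library than in each control. No test was made over these lists, since their members were chosen with results of these data known, and the difference in the count of calls was not tested. The log2 fold changes ran from -0.09 to 3.12 in homologous recombination and from -0.16 to 0.59 in end joining, so that the ranges overlapped and the largest end joining change, that of Lig4, lay just above the homologous recombination median. Relative to the median of all genes, the homologous recombination median was 0.51 higher and the end joining median 0.18 higher. These distances were 0.37 and 0.17 without both libraries numbered 1, and 0.44 and 0.18 by the median over transcripts. Scaling by the sum of the B cell markers, an alternative chosen after the data were seen, moved the median of all genes from 0.06 to -0.19 and the end joining median to -0.006; since a scaling shifts all genes alike, it could not change those distances.

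**Figure D3:**
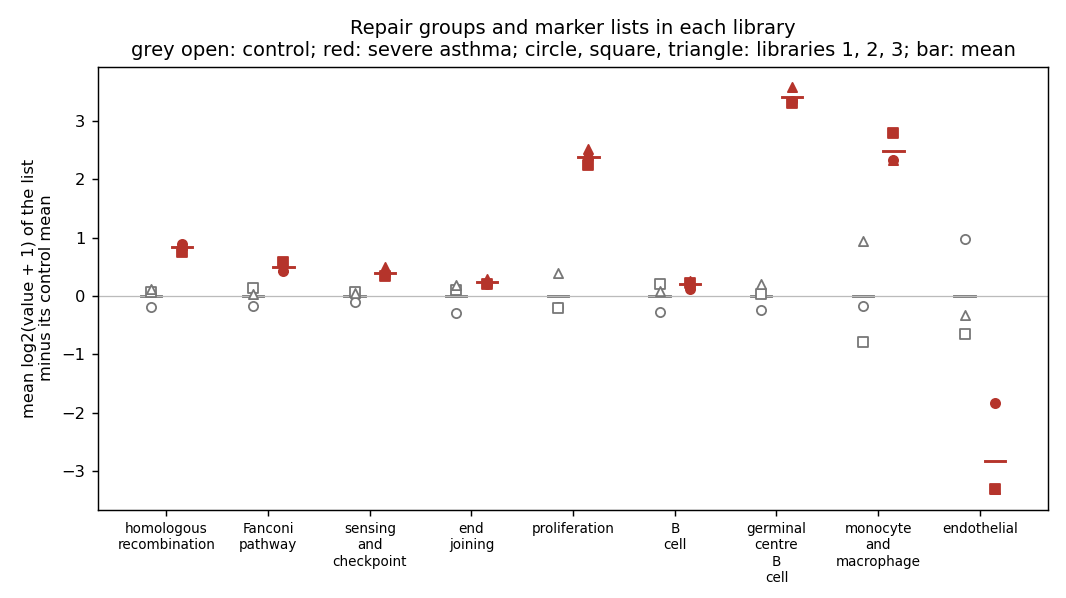
For each list, the mean log2(value + 1) of its genes in a library is drawn minus the mean of the 3 control libraries. Homologous recombination lies at 0.76 to 0.89 in severe asthma, end joining at 0.20 to 0.30, and the proliferation and germinal centre lists at 2.25 to 2.51 and 3.31 to 3.59.

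Proliferation markers moved with the repair genes. All 20 rose (median 2.76 on the log2 scale), and their sums were 7467 to 9166 in the control and 23621 to 28581 in the severe asthma libraries. Of the 9 germinal centre markers 8 rose, with sums of 1614 to 1805 against 5770 to 7008. The part of cycling or germinal centre cells in the change of the repair genes was not tested. By comparison 2 of the 10 B cell markers rose, where 20.7% of all genes did, with a median of 0.18. Control library 1 was the lowest control for 32 of the 43 repair genes, and for 43.2% of all genes tested. It also had the lowest B cell marker sum and the highest sums of endothelial and epithelial markers of the 6 libraries. Without both libraries numbered 1, an alternative added after the data were seen, 19 repair genes rose, and 1, Dclre1c, fell.

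The repair genes with the fewest reads had the larger changes. Of the 8 with a mean over the 6 libraries under 100 adjusted reads 6 rose, 5 of them at least 2-fold, and the median log2 fold change was 1.90. Of the 35 with a mean of at least 100, 13 rose, of which Fancd2 and Brca1 did so at least 2-fold, and the median was 0.30. Across all genes the shares that rose were 7.28% under and 27.8% at or above this mean. Over the 43 genes Spearman's rho between the mean over 6 libraries and the log2 fold change was -0.66, and over all 15759 genes it was 0.23; genes are not independent replicates, and a read number also depends on transcript length.

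Rad51ap1 and Brip1 are the called members with the largest rise that the promoter table holds. The stretch just around the start site is shown for each of them and for each Ku gene of end joining. Each runs from 250 bases before to 50 bases after the start and comes from RefSeq (GRCm38.p6): chr6:126939538-126939837 on the minus strand for Rad51ap1, chr11:86201144-86201443 on the minus strand for Brip1, chr1:72307171-72307470 on the plus strand for Xrcc5 and chr15:82016119-82016418 on the plus strand for Xrcc6. Capitals mark an E2F-like match (TTCCCGC or TTCGCGC or TTGCCGC or TTGGCGC) or CCAAT, on either strand; E2F proteins are factors of genes used in S phase.
Rad51ap1: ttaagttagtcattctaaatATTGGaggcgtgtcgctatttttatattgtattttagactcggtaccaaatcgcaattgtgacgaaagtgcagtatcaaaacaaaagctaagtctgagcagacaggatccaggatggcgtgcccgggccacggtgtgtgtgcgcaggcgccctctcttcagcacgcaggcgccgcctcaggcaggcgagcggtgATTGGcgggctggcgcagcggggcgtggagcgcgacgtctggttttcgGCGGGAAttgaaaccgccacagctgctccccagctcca
Brip1: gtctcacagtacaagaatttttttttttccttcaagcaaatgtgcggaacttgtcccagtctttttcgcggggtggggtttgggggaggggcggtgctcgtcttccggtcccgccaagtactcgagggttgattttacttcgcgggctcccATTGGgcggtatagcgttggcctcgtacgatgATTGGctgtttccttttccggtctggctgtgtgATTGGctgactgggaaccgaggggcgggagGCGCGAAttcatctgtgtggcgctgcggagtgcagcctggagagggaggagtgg
Xrcc5: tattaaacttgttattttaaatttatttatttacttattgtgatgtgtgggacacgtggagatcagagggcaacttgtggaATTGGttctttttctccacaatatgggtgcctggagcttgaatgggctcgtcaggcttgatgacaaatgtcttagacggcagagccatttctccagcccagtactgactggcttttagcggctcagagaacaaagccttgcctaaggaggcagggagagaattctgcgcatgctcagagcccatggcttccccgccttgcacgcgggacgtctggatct
Xrcc6: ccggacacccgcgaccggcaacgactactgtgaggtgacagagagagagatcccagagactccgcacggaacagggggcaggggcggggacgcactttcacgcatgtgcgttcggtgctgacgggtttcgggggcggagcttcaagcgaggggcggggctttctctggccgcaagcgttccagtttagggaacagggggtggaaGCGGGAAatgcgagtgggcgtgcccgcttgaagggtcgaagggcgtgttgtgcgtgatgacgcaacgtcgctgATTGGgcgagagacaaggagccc
Rad51ap1 and Brip1 each hold 1 E2F-like match near the start site, whose first base lies 13 bases after the start in Rad51ap1 and 4 before it in Brip1. Xrcc6 also holds 1, at 46 bases before the start, and in Xrcc5 these letters are not in this window.

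The table held 38 promoters of 33 repair genes. Of these promoters 23, or 60.5%, held an E2F-like match, compared with 14.95% of the 15861 promoters of the genes tested and 9.57% of all 32851 promoters. The share was 64.7% of 17 homologous recombination promoters, 60% of 10 Fanconi promoters, 60% of 5 sensing and checkpoint promoters and 50% of 6 end joining promoters. The letters were thus found in all 4 role groups. Some genes have more than 1 promoter. By gene, a match was found for 9 of 13 in homologous recombination and 2 of 5 in end joining. It was found for 6 of 10 Fanconi genes and 3 of 5 sensing and checkpoint genes. CCAAT was found in 65.8% of the repair gene promoters, 37.3% of the promoters of the genes tested and 37.4% of all promoters. The letters TTTGAA were found in 5.26% of the repair gene promoters, 12.8% of the promoters of the genes tested and 17.9% of all promoters. Since TTGGCGC and the reverse complement of CCAAT share letters, 1 stretch can count for both. E2F-like matches were found in called genes, such as Brca1, Chek1 and Fanci, and in genes that did not pass, such as Atm, Rmi1 and Fancb. Whether the letters have a part in the changes was not tested. A match is a description of the letters and not a bound site.

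For most of the genes the choice of transcript made little difference. The 43 genes had 228 annotated transcripts in the table, of which 90 rose and 0 fell, where 15.7% of all transcripts tested rose. Transcripts of 1 gene share most of their reads and are not independent. Of the 38 genes with several transcripts, 4 had log2 fold changes that spanned more than 0.5, namely Rad51b, Rad54l, Rad54b and Fanca. For Rad54l the predicted transcript of the highest mean had a log2 fold change of 0.66, and the curated transcript of the highest mean, NM_009015.3, one of 1.78 (adjusted p = 0.00787 over all transcripts). The curated transcript had values of 22.6, 44.01 and 44.3 in the controls and 131, 102 and 141 in severe asthma. The predicted transcript had 185 to 198 more adjusted reads than it in the controls and 231 to 244 more in severe asthma, so the surplus itself differed by less.

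Rad54l shares 1184 exonic bases, 15.4% of its own, with Lrrc41 on the opposite strand (GENCODE vM21, GRCm38), and Lrrc41 had a log2 fold change of 0.01. Whether counting used strand is not given in the sources used here, so reads from such overlaps cannot be told apart; 21 of the 43 genes share exonic bases with another gene, 14 of them with a protein-coding one. Rad54b shares 2068 bases, 35.8%, with Fsbp on its own strand, and Fsbp had a log2 fold change of 3.38 (adjusted p = 0.0143). Fanci shares 16.0% with Polg (log2 fold change 0.30, adjusted p = 0.0151), Fancl 13.7% with Vrk2 (0.61, 0.00942) and Xrcc6 7.69% with Desi1 (0.49, 0.00382), each on the opposite strand, and all 3 partners rose. For these genes the part of the partner in the value was not tested.

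Fanca is another such gene. Its 4 transcripts of the highest values had log2 fold changes of 0.30 to 0.48 and did not pass, while its 3 transcripts of the lowest values rose by 0.80 to 0.93. The gene shares 10.5% of its exonic bases with Zfp276 on the opposite strand (log2 fold change 0.27, adjusted p = 0.0897). In Fancc, 17 of 26 transcripts rose, among them the curated transcript of the highest mean (0.34, adjusted p = 0.0233), but not the predicted one that represents the gene (0.14).

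**Figure D4:**
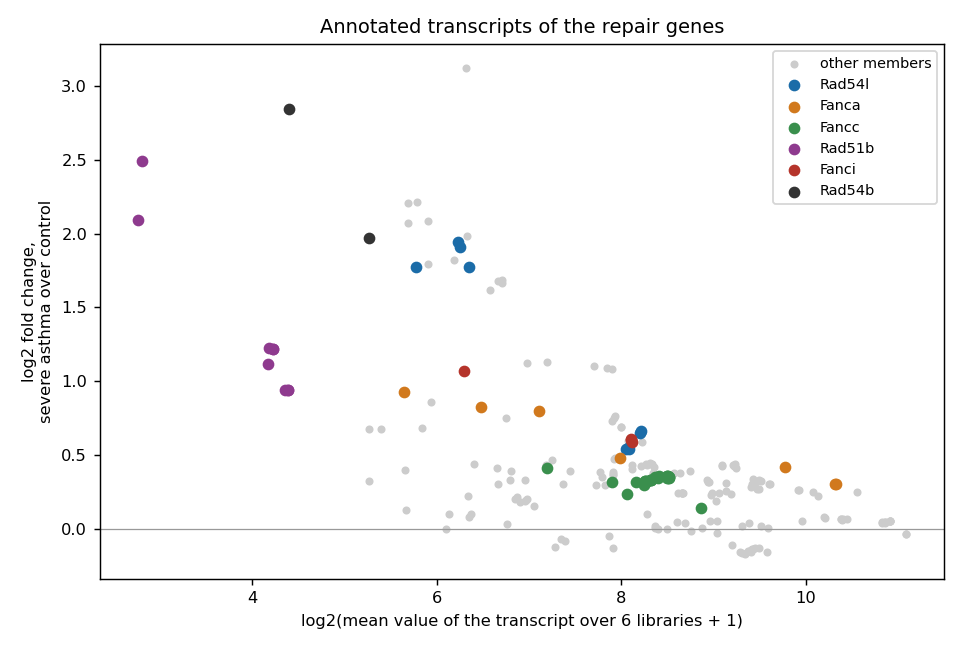
Each point is 1 annotated transcript of a repair gene, with the log2 of its mean value over the 6 libraries plus 1 on the horizontal axis and its log2 fold change on the vertical axis. Rad54l falls into a group near 0.6 with most reads and a group between 1.78 and 1.94 with fewer, and Rad51b spans 0.94 to 2.49.

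The table of non-coding transcripts held 80 tested entries that carry the names of 29 of these genes, most of them predicted non-coding forms that overlap the coding ones. Of these 22 rose and 0 fell, where 9.23% of all non-coding transcripts rose. Entries of 1 gene can share most of their reads, and some of Rad51b have the same values, so they are not independent. One gene has a name of its own, Brip1os, annotated opposite Brip1, with 2 transcripts that differed. The first had 538, 459 and 489 in the controls and 618, 658 and 665 in severe asthma. It rose by a log2 fold change of 0.39 (adjusted p = 0.0124), compared with 1.98 for Brip1. The second had 416, 394 and 363 in the controls and 358, 355 and 428 in severe asthma, with overlapping groups and a log2 fold change of -0.04 (adjusted p = 0.832).

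Genes of the same routes outside the 43 were read from lists of their own. Their counts stand against the 20.7% of all genes that rose. Of 31 other homologous recombination genes 16 rose and 0 fell, and their median was 0.44. Dna2 (1.84, adjusted p = 0.00148) and Exo1 (1.44, adjusted p = 0.0192), which trim ends, and Eme1 (1.22, adjusted p = 0.00832), a subunit of a junction-cutting nuclease, were among those that rose. Of 15 other Fanconi genes 8 rose, led by Uhrf1 (2.73, adjusted p = 0.000668), a reader of hemimethylated DNA that also binds crosslinks, and by the core complex partners Cenps (0.99, adjusted p = 0.0412), Faap20 (0.62, adjusted p = 0.00276) and Faap24 (0.55, adjusted p = 0.0212). The 1 that fell was Wdr48 (-0.30, adjusted p = 0.02498), the cofactor of the enzyme that removes ubiquitin from Fancd2. The gene of that enzyme, Usp1, rose (0.44, adjusted p = 0.00257). Wdr48 and Usp1 are named here after their values were seen.

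Of 20 other genes of end joining and end protection 7 rose and 0 fell, with a median of 0.36 and none at least 2-fold. These were led by Xrcc1 (0.69, adjusted p = 0.0111), a scaffold of single-strand break repair and a backup joining route, Tdp1 (0.62, adjusted p = 0.0104), which clears blocked ends, Polq (0.60, adjusted p = 0.0379), the polymerase of microhomology-mediated joining, and Poll (0.49, adjusted p = 0.0141), a gap-filling polymerase. The core factors Xrcc4 and Nhej1, partners of Lig4, had log2 fold changes of 0.23 and 0.46 with adjusted p-values of 0.385 and 0.219; they are named here after their values were seen. Of 21 other damage signalling genes 9 rose and 0 fell, where 20.7% of all genes rose. Clspn, the adaptor through which Atr activates Chek1, had 30.4, 43.01 and 52.6 in the controls and 427, 325 and 411 in severe asthma and a log2 fold change of 3.20, adjusted p = 0.000291. H2ax (1.72, adjusted p = 0.000216), the histone marked at breaks, Tipin (1.23, adjusted p = 0.00116), a fork protection protein, and Wee1 (1.17, adjusted p = 0.002495), a kinase that holds back mitosis, also rose at least 2-fold. Trp53 did not pass (log2 fold change 0.23, adjusted p = 0.103), nor did Mdc1 (log2 fold change 0.14, adjusted p = 0.143), which binds the marked histone.

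In the authors' deposited table of 2977 called genes 7 of the 43 were listed, the same 7 that rose at least 2-fold here. Of the transcripts that represent the 43 genes, 9 had a q under 0.05 in the authors' deposited table of mRNA, the other 2 being Brca2 (q = 0.0481) and Rad54l (q = 0.0354). The authors' deposited table of GO terms gave DNA replication a q of 0.00011, double-strand break repair via homologous recombination 0.287 and double-strand break repair via nonhomologous end joining 0.975. In the authors' deposited table of KEGG pathways the Cell cycle pathway had a q of 0.00282, the Fanconi anemia pathway 0.835 and Homologous recombination 0.997.

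The number of repair genes that rose changed with the processing. It was 10 with recovered reads scaled by total reads, 11 with DESeq2, 14 with limma-voom and 15 with edgeR. It was 7 with B cell marker scaling, 23 with the replicate block, and 8 to 19 with 1 library left out. Bard1, Fancm, Rad50 and Nbn lost their calls with each of edgeR, DESeq2 and limma-voom. Brca1, Brip1, Rad51ap1, Rad54b, Rmi2, Fancd2 and Chek1 kept their calls under all 22 alternatives run. Scaling also decided the split over all genes, which was 3262 higher and 2263 lower as reported, 1920 and 3111 by total reads, 2365 and 2670 by edgeR with RLE factors, 2479 and 2884 by DESeq2, and 823 and 1918 by B cell marker scaling. Scaling by total reads moved the median of all genes from 0.06 to -0.08, and by construction the repair genes with it. B cell marker scaling turned 11 log2 fold changes of repair genes below 0, among them those of Xrcc5 (-0.011), Prkdc (-0.00041) and the called gene Rad50 (-0.032), and none of the 11 passed there.

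**Figure D5:**
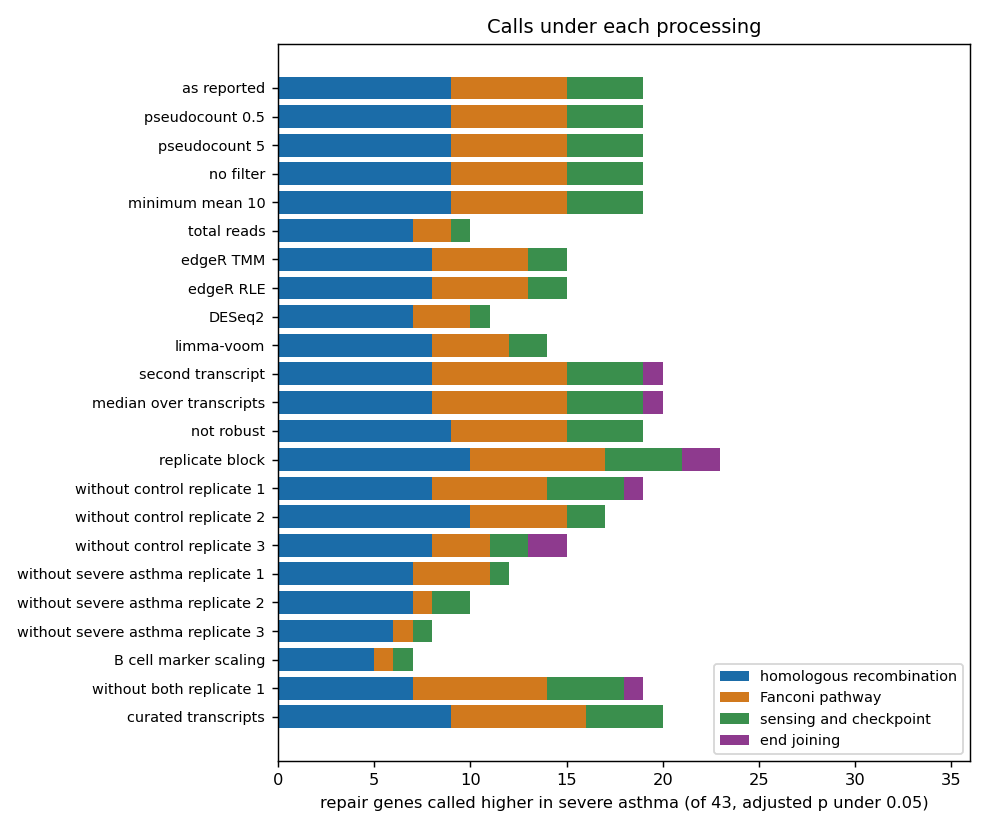
Each bar gives the number of the 43 repair genes called higher in severe asthma (adjusted p under 0.05) under 1 processing, divided by role. The bars run from 7 genes with B cell marker scaling to 23 with the replicate block, and end joining genes appear in 6 of the alternatives, with at most 2 genes.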

How the data were processed

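RNA of B220-selected lung cells was measured in 3 control and 3 severe asthma libraries, grouped by their labels. The deposited signal is an adjusted read value per transcript; tools listed in the submitters' processing notes, without their roles, are HISAT2 2.1.0, HTSeq 0.11.2 and bcl2fastq, and the genome build is mm10. Each p-value, q-value and log2 fold change in the deposited tables is the authors' own, by a test not given in the sources used here. All 429494 values of at least 1 read (100%) matched, within 0.01, a whole number of reads passed through edgeR's quantile adjustment with a dispersion of 0.0474; edgeR's quasi-likelihood test with TMM factors on those reads called 4995 genes and limma 5525.

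The test was limma-trend 3.58.1 (R 4.3.3) on log2(value + 1) with robust empirical Bayes and 1 transcript per gene. It was two-sided and took genes whose mean was at least 1, and p-values were adjusted by Benjamini-Hochberg over the whole table. It was checked on simulated data. Alternatives used edgeR 4.0.16, DESeq2 1.42.0, limma-voom, other pseudocounts (0.5 and 5), filters, transcripts and scalings, a replicate block and fits without each library. Same-numbered libraries deviated together (correlations of 0.41, 0.13 and 0.14), by the data and not by a label. The replicate block took the numbers as pairs, as an alternative only. Control 2 correlated more with severe asthma 3 (0.18), however, and control 3 with severe asthma 2 (0.20). For libraries 2 and 3 these data thus do not favour the pairing by number. Members, lists and tests were chosen with earlier results of these data known. Full statistics went to the 4 genes with the smallest adjusted p and the 1 with the largest in each role group, and to end joining; of each other list up to 4 called genes with the largest change and up to 2 uncalled genes of the highest mean were named. A gene that this rule picks is not reported here. Overlaps used GENCODE vM21, promoters RefSeq GRCm38.p6.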

Additional observations from a re-analysis of the deposited data

How the results depend on the processing

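Brca1, Brip1, Rad51ap1, Rad54b, Rmi2, Fancd2 and Chek1 kept their direction and call under all 22 alternatives. Of the 43 genes, 19 rose as reported, 10 with total-read scaling, 11 with DESeq2 and 7 with B cell marker scaling. The homologous recombination median, 0.57 as reported, was 0.42 with total reads, 0.32 with B cell marker scaling and 0.43 without both libraries numbered 1. The end joining median, 0.25, was -0.0057 with B cell marker scaling. The whole table had 5525 genes called as reported, 2741 with B cell marker scaling and 6074 without both libraries numbered 1, where 1 of the 43 fell, Dclre1c.

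With 1 library left out, 2303 to 5644 genes were called in the whole table, 8 to 19 of the 43 rose and 0 to 1 fell, and the medians were 0.47 to 0.62 and 0.20 to 0.31. With the replicate block 23 rose: Rad50 lost its call, Rad52, Fancg, Rbbp8, Xrcc6 and Prkdc gained one, and it changed no other call.

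Most log2 fold changes that turned sign were of genes not called as reported, the exception being Rad50, and none passed in the setting where it turned. B cell marker scaling turned the most: Rad51d was at -0.016, Xrcc2 -0.033, Top3a -0.24, Fancb -0.22, Fancc -0.11, Rad50 -0.032, Atr -0.18, Chek2 -0.097, Xrcc5 -0.011, Prkdc -0.00041 and Trp53bp1 -0.20. Without both libraries numbered 1 Top3a was at -0.087 and Atr -0.0033. With total reads Top3a was at -0.13, Fancb -0.11, Fancc -0.0035, Atr -0.071 and Trp53bp1 -0.097. With edgeR and TMM factors Top3a was at -0.051, Fancb -0.030 and Trp53bp1 -0.016, and with RLE factors Top3a -0.077, Fancb -0.057, Atr -0.020 and Trp53bp1 -0.042. DESeq2 gave Top3a -0.077, Fancb -0.057, Atr -0.020 and Trp53bp1 -0.042, and limma-voom Top3a -0.049, Fancb -0.031 and Trp53bp1 -0.015. Rmi1 was at 0.050 by its second transcript, 0.050 by its curated transcript and 0.016 by the median over transcripts. With 1 library left out Top3a ran from -0.066 to 0.066, Atr from -0.030 to 0.15, Chek2 from -0.027 to 0.32, Trp53bp1 from -0.0051 to 0.085, Rmi1 from -0.12 to 0.040, Fancb from -0.054 to 0.098 and Atm from -0.10 to 0.024. The cause was not tested. Control means of 14.7 to 50.03 adjusted reads for Rad54b, Rmi2, Rad51ap1, Chek1, Brip1 and Fancd2 limit how closely those folds are known.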
